A study of Mus musculus with 6 samples.

Results

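The genes followed here on every array of the series encode 9 liver enzymes: Pck1 and Fbp1 of gluconeogenesis, Cps1, Otc, Ass1 and Arg1 of the urea cycle, and Tat, Agxt and Hpd of amino acid catabolism. They were taken by gene symbol, and all 9 of 9 were present among the 8251 genes that the platform annotation names, each on 1 probe set, none of which carries a letter code for shared sequence. RNA of whole liver from male mice 8 to 10 weeks old had been measured on 6 one-colour Affymetrix arrays: there were 3 genotypes, each sampled at 2 circadian times with a single array. CT02 lies 2 h and CT14 14 h after the start of the subjective day, that is, early in the subjective day and early in the subjective night. The groups were wild type on a C57BL/6 background, a Clock mutant and Cry-deficient mice, of which the CT02 array is described as Cry1 and Cry2 double knockout and the CT14 array only as Cry deficient. The sources used here do not give the Clock allele, the strain of the mutants, feeding, lighting or any pooling of livers. Values below are listed with CT02 first and CT14 second. Cry1 read 1833 and 2723 scaled units in wild-type liver against 3845 and 4718 on the arrays labelled Cry-deficient, and Cry2 read 1215 and 2256 against 1185 and 1344. Clock read 2430 and 1552 in wild-type liver against 1640 and 2069 in Clock mutant liver. The Cry1 probe set carries a letter code for shared sequence. The positions of the Cry1, Cry2 and Clock probe sets with respect to the altered parts of the genes are unknown here, so they check neither label. The arrays labelled Cry-deficient are called Cry-labelled below.

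Gluconeogenesis makes glucose from lactate, glycerol and amino acids, and liver runs it mostly between meals. PEPCK, the product of Pck1, turns oxaloacetate into phosphoenolpyruvate, and fructose bisphosphatase, the product of Fbp1, acts further along the same path. Amino acids burned for this purpose release nitrogen, which the urea cycle detoxifies: Cps1 and Otc work in the mitochondrion and make citrulline, and Ass1, Asl and Arg1 carry it through argininosuccinate and arginine to urea in the cytosol. Glucagon, acting through cyclic AMP, and glucocorticoids are the textbook inducers of Pck1 and Tat, and CLOCK with its partner ARNTL activates genes through E-box elements.

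The arrays differed from one another in ways that touch bright genes such as these. The mean deposited intensity was 1637 for the Clock mutant at CT02, against 2182 to 2486 elsewhere, so each array was scaled, and values under 606 scaled units, the pooled median, were set to that floor. The control signal at the 3' end over that at the 5' end is higher where RNA is shorter. Its highest array differed between control genes, but the Cry-labelled array at CT02 was highest or second highest for each. For Actb it was 2.68 for the Clock mutant at CT02 and 1.70 for the Cry-labelled array at CT02, against 0.84 to 1.15 elsewhere. For Gapdh it was 2.37 for the Cry-labelled array at CT02, against 0.56 to 0.72 elsewhere, the Clock mutant at CT02 being lowest. For Pcx it was 25.3 for the Cry-labelled array at CT02, 19.7 for wild type and 17.7 for the Clock mutant at that time. It was 3.96 to 7.14 on the 3 CT14 arrays. The part of RNA length in readings that stand out on the Cry-labelled CT02 array, such as that of Ass1, was not tested. Of 8 hepatocyte markers on the array all passed the filter on dim genes, with a summed level between 87506 (Clock mutant, CT14) and 129096.5 (Clock mutant, CT02) scaled units, although Apoa1 was under the floor on the 3 CT14 arrays. Of the 9 enzyme genes 8 passed that filter, which kept 4844 genes, and Hpd did not.

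Pck1 and Ass1 were the genes of the 9 with a 2-fold difference in any comparison, and the sequence before each start site is shown because elements named above occur there. RefSeq promoters (GRCm38.p6) were found for 7 of the 9 genes, not for Cps1 or Arg1, and the 250 bases before each start were searched on both strands. The Ass1 promoter (chr2:31470020-31470269, plus strand) holds the E-box CACGTG from 36 to 31 bases before the start, in capitals below. It was the only one of the 7 with that motif, which 6.02% of all 32851 promoter windows of that length hold. The Pck1 promoter (chr2:173152823-173153072, plus strand) holds TTACGTCA, a cyclic AMP element, from 93 to 86 bases before the start, also in capitals, and 0.447% of all windows hold that string.
Ass1: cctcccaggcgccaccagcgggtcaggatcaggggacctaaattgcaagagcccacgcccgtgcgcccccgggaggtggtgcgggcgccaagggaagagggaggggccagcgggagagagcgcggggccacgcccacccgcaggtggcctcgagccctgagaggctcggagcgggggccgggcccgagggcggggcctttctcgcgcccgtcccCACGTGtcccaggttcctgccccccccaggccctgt
Pck1: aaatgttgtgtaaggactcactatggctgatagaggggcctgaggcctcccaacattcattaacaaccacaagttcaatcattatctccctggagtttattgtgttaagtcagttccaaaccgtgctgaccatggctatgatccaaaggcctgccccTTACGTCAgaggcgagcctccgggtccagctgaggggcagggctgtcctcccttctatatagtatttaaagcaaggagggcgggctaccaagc
The short element TGACG, which overlaps TTACGTCA on the other strand as CGTCA, also occurred in Pck1 alone of the 7 (17.8% of all windows). The consensus TGACGTCA (1.55% of all windows) and the D-box TTATGTAA (0.819%) occurred in none of the 7, and the short glucocorticoid element AGAACA (16.1%) occurred in Agxt alone, as TGTTCT. A match is a string of letters in this window and not a shown binding site.

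**Figure D1:**
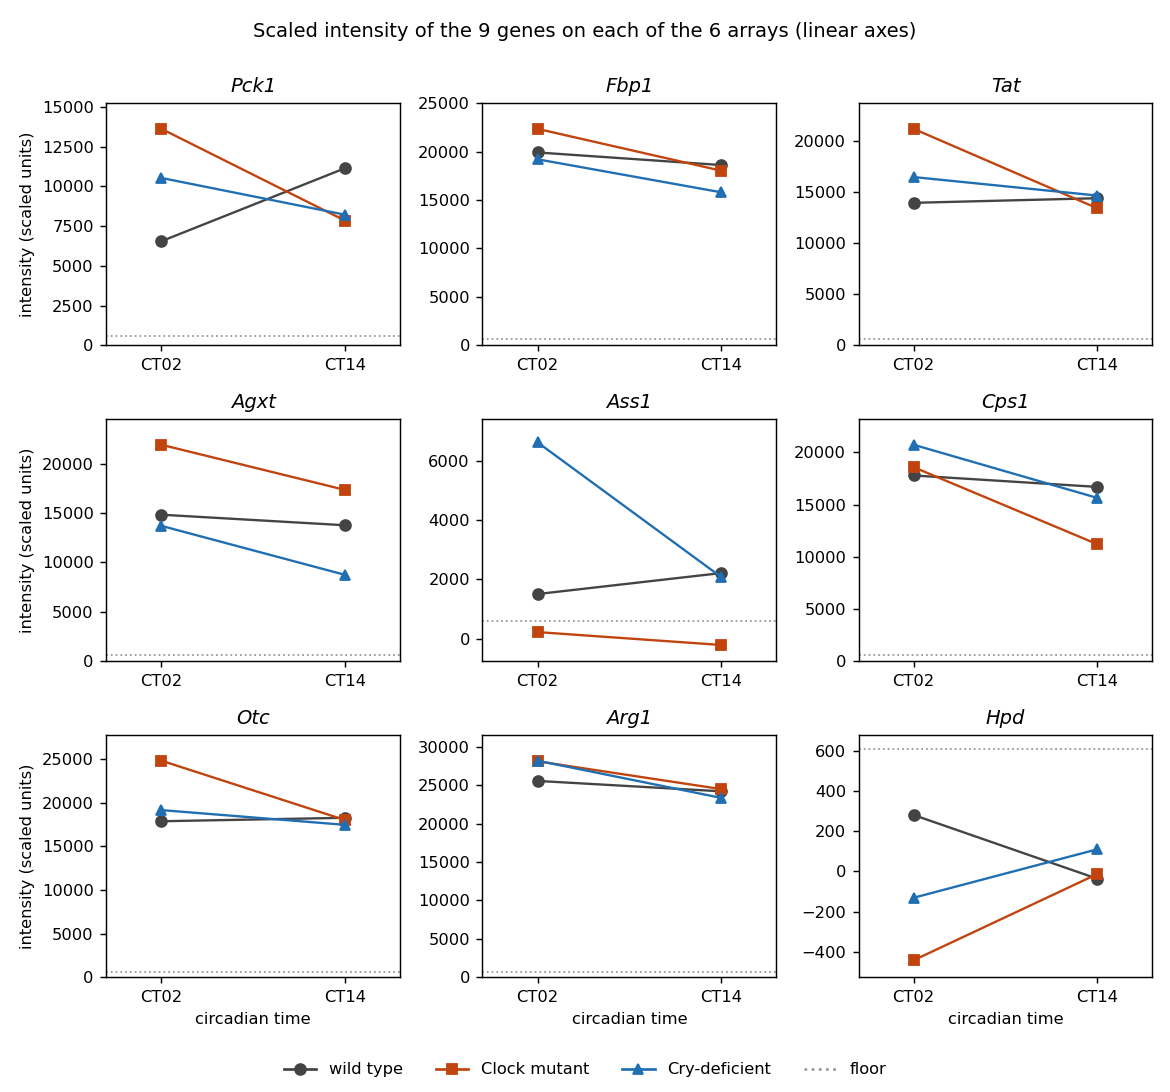
Scaled intensity (linear y axes that differ between panels) of the 9 genes at CT02 and CT14, 1 point per array, with a line joining the 2 arrays of a genotype and the floor of 606 scaled units dotted. Pck1 is higher at CT14 than at CT02 in wild type and lower in both mutants, Ass1 lies under the floor on both Clock mutant arrays, and Hpd lies under it on all 6 arrays.

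Pck1, the gene of the first committed step of gluconeogenesis, ran opposite ways between the times in wild type and in the mutants. It read 6546 at CT02 and 11139 at CT14 in wild-type liver, 13613 and 7836 in Clock mutant liver, and 10524 and 8209.9 on the Cry-labelled arrays. After scaling, wild type at CT02 was the lowest of the 6 arrays and the Clock mutant at CT02 the highest, 2.08-fold apart, whereas on the values as deposited wild type at CT14 was highest (12356, against 10103 for the Clock mutant at CT02). From CT02 to CT14 the log2 ratio was 0.77 in wild type (1.70-fold higher), -0.80 in the Clock mutant (1.74-fold lower) and -0.36 on the Cry-labelled arrays (1.28-fold lower). Pck1 was not 2-fold apart in any of the time contrasts, and 4.71% of the kept genes had a wild-type ratio as high or higher. Over the alternative settings the wild-type ratio lay between 0.76 and 0.79 and the Clock mutant ratio between -0.80 and -0.30, so the opposite signs were kept while the size in the Clock mutant was not.

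Fbp1, the fructose bisphosphatase gene, differed less than Pck1 on these arrays. It read 19907 and 18607 in wild-type liver, 22345 and 18021 in Clock mutant liver, and 19201 and 15792 on the Cry-labelled arrays. All 3 genotypes had the lower scaled value at CT14, by 1.07-fold, 1.24-fold and 1.22-fold, and the highest and lowest arrays were 1.42-fold apart. In the Clock mutant that direction did not hold under other scalings: the log2 ratio was -0.31 after scaling, 0.19 as deposited, 0.0023 with quantile normalization and 0.014 after lowess correction.

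Cps1, Otc and Arg1 of the urea cycle were bright and nearly level in wild type. Cps1, which makes carbamoyl phosphate, read 17793 and 16698 in wild-type liver, 18586 and 11208 in Clock mutant liver, and 20736 and 15643 on the Cry-labelled arrays. The Clock mutant CT14 array was the low one, 1.66-fold under its own CT02 array and 1.49-fold under wild type at CT14. Otc, the gene of the enzyme that joins carbamoyl phosphate to ornithine, read 17877 and 18274, 24824 and 18013, and 19156 and 17465 in the same order. After scaling the Clock mutant CT02 array was the highest for Otc, 1.39-fold over wild type at that time. That log2 ratio of 0.47 was 0.17 with quantile normalization, 0.23 after lowess correction and -0.08 as deposited. Arg1, the arginase gene that releases urea, read 25569 and 24214, 28119 and 24501, and 28206 and 23358, a spread of 1.21-fold over all 6 arrays. Its highest deposited reading was 84.4% of the highest reading on that array, so Arg1 sat near the top of the signal range.

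Ass1, the gene of argininosuccinate synthetase, was low in Clock mutant liver and highest on 1 Cry-labelled array. It read 1505 and 2214 in wild-type liver, 219.6 and -215.7 in Clock mutant liver, and 6631 and 2079 on the Cry-labelled arrays. Both Clock mutant arrays were under the floor, the Cry-labelled CT02 array was the highest of the 6, and the Cry-labelled CT14 array lay near wild type. Against wild type Ass1 was at least 2.48-fold lower in Clock mutant liver at CT02 and at least 3.65-fold lower at CT14, where "at least" means that the Clock mutant value was replaced by the floor. Of the 4844 kept genes 21 (0.434%) were that low or lower at both times. On the Cry-labelled arrays Ass1 was 4.41-fold higher than wild type at CT02, a ratio that 14 genes (0.289%) reached, including Ass1, and 1.07-fold lower at CT14, and it was 3.19-fold lower at CT14 than at CT02. No ratio between the 2 Clock mutant arrays is given, since both were at the floor. Ass1 was in the lower part of the kept genes by mean level (percentile 35.5), whereas Fbp1, Tat, Agxt, Cps1, Otc and Arg1 were among the 485 brightest kept genes, a set used below for comparison.

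Tat, the first enzyme of tyrosine breakdown and a classic glucocorticoid target, was level in wild type and on the Cry-labelled arrays. It read 13939 and 14390 in wild-type liver, 21178 and 13404 in Clock mutant liver, and 16461 and 14649 on the Cry-labelled arrays. After scaling the Clock mutant CT02 array was the highest, 1.52-fold over wild type at CT02 and 1.58-fold over the Clock mutant at CT14. On the values as deposited these log2 ratios were 0.05 and, for CT14 over CT02, -0.16, against 0.60 and -0.66 after scaling. Agxt, whose product clears glyoxylate with alanine as the amino donor, had readings ordered by genotype. It was also lower at CT14 than at CT02, by 1.57-fold on the Cry-labelled arrays and 1.26-fold in Clock mutant liver. It read 14833 and 13765 in wild-type liver, 21917 and 17341 in Clock mutant liver, and 13704 and 8739 on the Cry-labelled arrays. The Clock mutant arrays were the 2 highest and the Cry-labelled arrays the 2 lowest, with wild type between, and the extremes were 2.51-fold apart. Against wild type Agxt was 1.48-fold and 1.26-fold higher in Clock mutant liver (CT02, then CT14), and 1.08-fold and 1.58-fold lower on the Cry-labelled arrays. On the values as deposited its Clock mutant ratio at CT02 was 0.01 in log2 against 0.56 after scaling. Hpd, the gene of the dioxygenase that follows Tat in tyrosine breakdown, read between -442.0 and 280.0 on the 6 arrays, at or below 0 on 4 of them and never above the floor, so no level or ratio of Hpd is given. Whether its probe set reports the gene is unknown here, so these readings do not show that the livers lacked Hpd RNA.

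**Figure D2:**
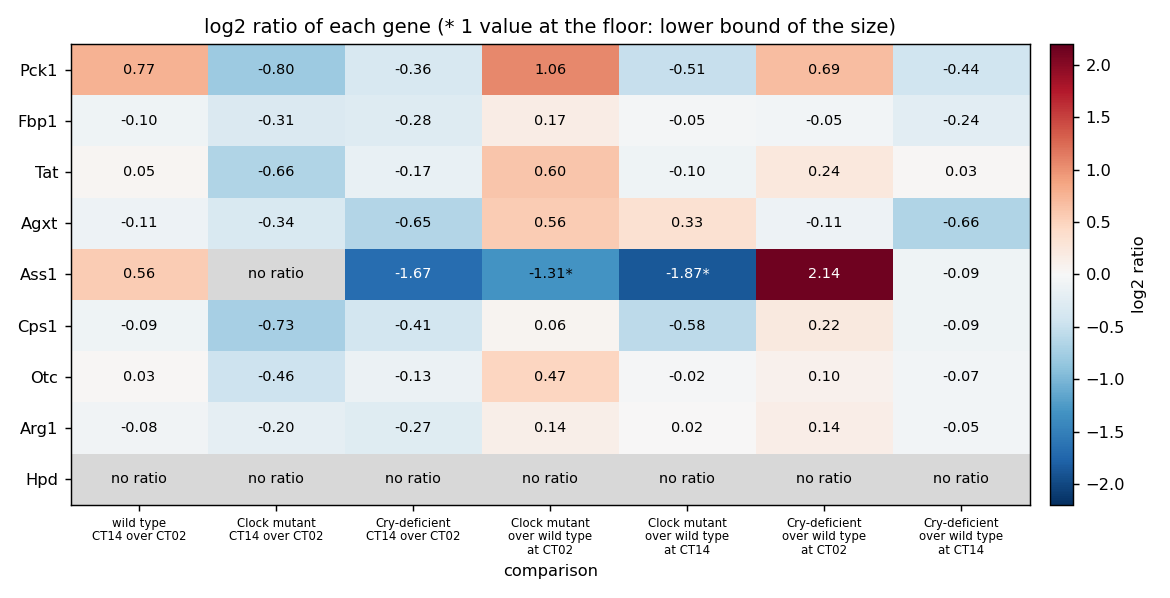
log2 ratios (colour and number) of the 9 genes, in rows, in the 7 comparisons of 2 arrays, in columns, with lower bounds of the size starred and grey where no ratio was taken. Ass1 spans -1.87 to 2.14, Pck1 -0.80 to 1.06, and every other ratio lies between -0.73 and 0.60.

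The genes were then counted comparison by comparison, where 1 array per group leaves no replicate error and sizes are descriptions. In wild type at CT14 against CT02, 0 of the 8 kept genes were at least 2-fold apart, where 4.56% of all kept genes were (2.48% higher, 2.09% lower), and their median log2 ratio was -0.02 beside 0.00 over all kept genes. Apart from Pck1 and Ass1 (0.77 and 0.56), the 6 others lay between -0.11 and 0.05. In the Clock mutant the same contrast had 0 of 8 genes 2-fold apart (7.74% of all kept genes, 4.31% higher and 3.43% lower), but all 7 with a ratio were lower at CT14, with a median of -0.40 over the 8. Of the 485 brightest kept genes 84.3% were lower too, with a median of -0.29, and the median of the 8 genes was 0.017 on the values as deposited, -0.073 with quantile normalization and -0.12 after lowess correction. The size of that group shift thus depended on the scaling, and its sign turned on the unscaled values. Pck1, Tat and Cps1 were lower at CT14 in every setting that gave a ratio, while Fbp1 and Arg1 were higher at CT14 as deposited, with quantile normalization and after lowess correction, and Agxt and Otc as deposited. All 8 hepatocyte markers (median -0.43, with Ahsg and Hp at least 2-fold lower) and all 6 other periportal markers (median -0.54) were lower at CT14 in the same contrast, and their part in the result was not tested.

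On the Cry-labelled arrays all 8 genes were lower at CT14, and Ass1 alone was at least 2-fold lower (5.55% of all kept genes were 2-fold apart, 3.53% higher and 2.02% lower). The median was -0.32, beside -0.16 in the 485 brightest genes, of which 78.4% were lower. Agxt (log2 ratio -0.65) and Cps1 (-0.41) followed Ass1, and Otc had the smallest ratio (-0.13). The sign of Otc turned on the values as deposited (0.07), with quantile normalization (0.05) and after lowess correction (0.04), and that of Tat as deposited (0.04).

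The Clock mutant at CT02 had 7 of the 8 genes above wild type, where 49.3% of all kept genes and 79.6% of the 485 brightest were. Of the 8, 2 were at least 2-fold apart (11.8% of all kept genes, 4.25% higher and 7.51% lower): Pck1 2.08-fold higher and Ass1 at least 2.48-fold lower. The median was 0.32, beside 0.24 in the 485 brightest genes, and it was 0.080 after lowess correction, 0.030 with quantile normalization and -0.23 on the values as deposited. Fbp1, Cps1 and Arg1 were below wild type in all 3 of these settings, and Otc as deposited. Pck1 stayed above wild type in all of them, at 1.02, 0.92 and 0.50 in that order, so its 2-fold mark held after lowess correction and not under the other 2. At CT14 in the Clock mutant Ass1 was again the 1 gene at least 2-fold lower (9.76% of all kept genes were 2-fold apart, 4.13% higher and 5.64% lower), with Cps1 at -0.58, Pck1 at -0.51, Agxt at 0.33 and the remaining 4 genes between -0.10 and 0.02.

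Against wild type the Cry-labelled arrays at CT02 had Ass1 4.41-fold higher as the 1 gene past 2-fold (6.69% of all kept genes, 2.73% higher and 3.96% lower), followed by Pck1, 1.61-fold higher. The other 6 genes lay between -0.11 and 0.24, where the 485 brightest genes had a median of 0.12. At CT14 0 of the 8 genes were 2-fold apart (4.73% of all kept genes, 2.46% higher and 2.27% lower). Below wild type were 7 of 8, where 51.1% of all kept genes and 63.1% of the 485 brightest were. Agxt (-0.66) and Pck1 (-0.44) were farthest off, while Ass1, Cps1, Otc and Arg1 lay between -0.09 and -0.05. Arg1 was above wild type with quantile normalization (0.01) and after lowess correction (0.02). The wild-type arrays are shared by the comparisons of both mutants, so a high or low wild-type reading, such as that of Pck1 at CT02, enters both.

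**Figure D3:**
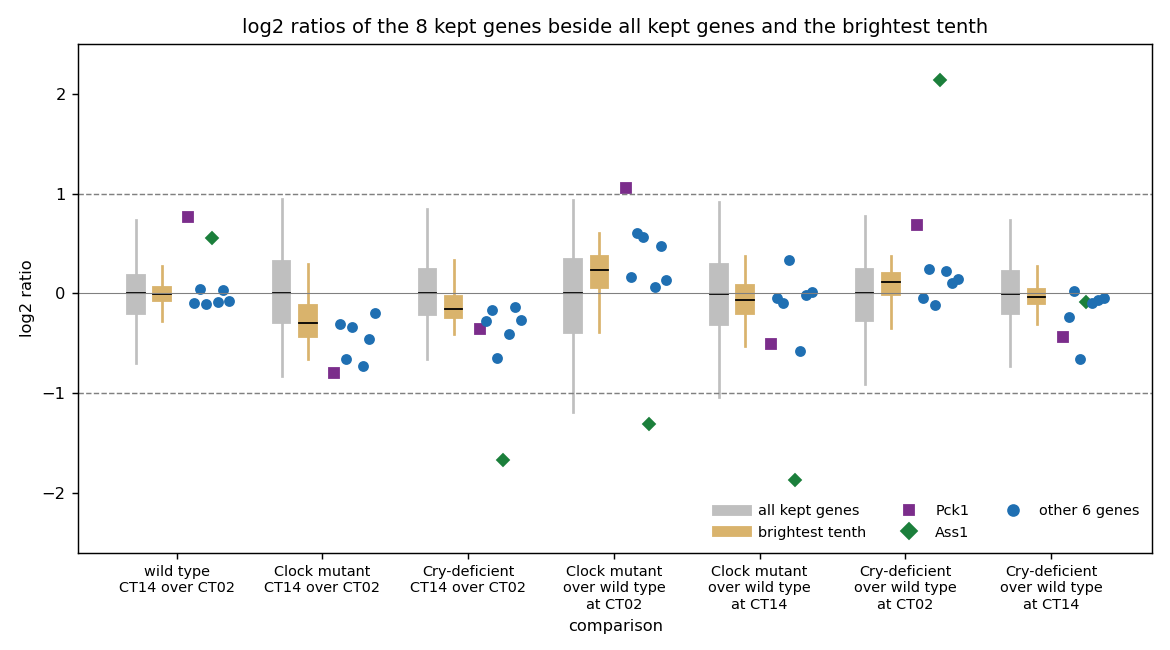
log2 ratios (y axis) in the 7 comparisons for all 4844 kept genes (grey) and the 485 brightest (tan), with bars from the 25th to the 75th percentile, lines from the 5th to the 95th and the median in black, beside the single genes as points. Dashed lines mark 2-fold, and Ass1 in the Clock mutant CT14 over CT02 is not drawn because both values were at the floor. Ass1 lies past 2-fold in 4 comparisons and Pck1 in 1, while the other 6 genes stay within it.

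An additive model of genotype and time was fitted to all 6 arrays with limma over the 4844 kept genes, to ask for a difference that the genotypes share between times, or that the times share between genotypes. It takes as error any difference of the time effect between genotypes, and p-values measure only the spread between these arrays. No enzyme gene passed an adjusted p (Benjamini-Hochberg) of 0.05 in any of the 3 contrasts. Over all genes 0 passed for time (0% of those tested, 225 at an unadjusted p under 0.05), 2 for Clock mutant over wild type (0.0413%, 768 unadjusted) and 0 for Cry-labelled over wild type (0%, 316 unadjusted). By ordinary least squares, without limma's moderation, these counts were 0, 0 and 0, with 165, 519 and 263 at an unadjusted p under 0.05. The 2 genes, Dio1 and Dynll2, are outside the pathways described here and were named after their values were seen.

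Ass1 came closest of the 8 genes in the genotype contrasts. Averaged over the times, its floored log2 value was 1.59 lower in the Clock mutant than in wild type in the limma fit (a difference of -1.59, SE 0.53, adjusted p = 0.234) and lower at both times. It was 1.02 higher on the Cry-labelled arrays (SE 0.53, adjusted p = 0.807). Leaving out either Cry-labelled array kept the Clock mutant difference at -1.59. The Cry-labelled array that remains is then fitted exactly, so both choices give the same fit to the wild-type and Clock mutant arrays. In that fit both Clock mutant values of Ass1 are the floor, which makes its spread small, so no p-value is given. Over the alternatives that kept every array, the adjusted p of the additive fit ran from 0.219 (values as deposited) to 0.727 (no filter on dim genes). Over all 14 alternatives the Clock mutant difference ran from -4.52, with the floor at the 25th percentile, to -0.89, without the wild-type CT14 array. It was -2.29 without the wild-type CT02 array. For time, Cps1 had a shared difference of -0.41 (SE 0.20, limma adjusted p = 0.896) and was lower at CT14 in all 3 genotypes, as were Fbp1, Agxt and Arg1 on scaled values, with the turns in the Clock mutant given above. The shared time difference of Pck1 was -0.13 (SE 0.32, limma adjusted p = 0.948), with 1 genotype higher and 2 lower at CT14.

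Levels of other cell types stood beside those of Ass1. All 10 macrophage and Kupffer cell markers on the array (12 listed) were kept, and none was under the floor on all arrays. Their summed level was 36612 and 35387 in wild-type liver, 27699 and 27812 in Clock mutant liver, and 48455 and 38336 on the Cry-labelled arrays, so that, as for Ass1, both Clock mutant arrays were lowest and the Cry-labelled CT02 array highest. The single markers did not all follow the sum. In the Clock mutant 5 were lower and 3 higher than wild type at CT02, the higher ones being C1qa, Cd68 and Tyrobp, and 8 were lower and 1 higher at CT14. On the Cry-labelled CT02 array 9 were higher and C1qa was lower, at 1508 against 4779 in wild-type liver. Their part in the Ass1 values was not tested. In bulk tissue, fewer cells of a type and less RNA per cell cannot be told apart. Pericentral hepatocyte markers (9 on the array, Lhpp under the floor throughout) summed to 62226 and 64666 in wild-type liver, 54928 and 57092 in Clock mutant liver, and 75043 and 62935 on the Cry-labelled arrays, and their part was not tested either. The low Clock mutant sum at CT02 rested on Glul: without it, an alternative chosen after the values were seen, the sums were 47178 and 49607 in wild-type liver, 50290.0 and 47992 in Clock mutant liver, and 53535 and 47943 on the Cry-labelled arrays. The single markers did not follow the sum without Glul. Of 7 kept, 5 were lower and 2 higher in the Clock mutant than in wild type at CT02. Glul, Cyp2e1 and Cyp7a1 were at least 2-fold lower there, as were 7.51% of all kept genes. The periportal markers other than the genes described here, 6 on the array and all kept, summed to 73118 and 66168, 76823 and 52246, and 77867 and 68991. Kidney tubule markers summed to 6741 and 7549.5 in wild-type liver, 5231 and 6544 in Clock mutant liver, and 3290.1 and 6717 on the Cry-labelled arrays. Of the 2 kept, Kap was under the floor on both Clock mutant arrays and the Cry-labelled CT02 array. Cubn was highest on the Clock mutant arrays. The part of these markers was not tested. Of 7 kidney tubule markers Slc22a6 was at or below 0 on all arrays, of 4 cholangiocyte markers Krt19 and Krt7 were, of 8 neutrophil markers Ngp was, and of 8 B and T cell markers Cd3e was. Members of these lists disagreed, since 2, 1, 3 and 3 of them were kept, in that order. Among those Kap read up to 4506, Cftr up to 1702, Camp up to 5409 and Ms4a1 up to 7367 scaled units. Of 4 exocrine pancreas markers 3 were kept, with Cela1 between 4153 and 10288.

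The other genes of the same pathways were described from lists that leave the 9 genes out. Of 14 further gluconeogenesis genes kept (25 listed), 0 were 2-fold apart between times in wild type, with a median of 0.03, and 13 of 14 were lower at CT14 in the Clock mutant, with a median of -0.31, near the -0.29 of the 485 brightest genes. Pcx, the pyruvate carboxylase gene that supplies oxaloacetate to PEPCK, read 9487 and 8736 in wild-type liver, 4914 and 4686 in Clock mutant liver, and 8959 and 8091 on the Cry-labelled arrays, on a probe set with a letter code. It was 1.93-fold and 1.86-fold lower in Clock mutant than in wild-type liver, at CT02 and CT14 respectively. The control probe sets for Pcx differed from this and from each other. The one at the 3' end read 15515 and 15270 in wild-type liver against 14677 and 13355 in Clock mutant liver, and the one at the 5' end 788 and 3858 against 831 and 2031, so that the latter was lower in the Clock mutant at CT14 and not at CT02. On the Cry-labelled CT02 array Slc25a1, the mitochondrial citrate carrier, was 2.54-fold lower than wild type, Gpd1, of the glycerol phosphate path, 1.98-fold lower, and Got2, the mitochondrial aspartate aminotransferase, 2.18-fold higher on a probe set with a letter code.

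In the wider urea cycle and nitrogen list (8 of 14 genes kept) Glul and Slc7a2 had the largest ratios. Glul, the glutamine synthetase gene of pericentral hepatocytes, read 15048 and 15059 in wild-type liver, 4638 and 9099.9 in Clock mutant liver, and 21507 and 14992 on the Cry-labelled arrays. It was low on both Clock mutant arrays and highest on the Cry-labelled CT02 array, as Ass1 was. Slc7a2, a transporter of cationic amino acids such as arginine, was 3.88-fold lower in Clock mutant than in wild-type liver at CT02 and 1.16-fold lower at CT14. Car5a, the mitochondrial carbonic anhydrase that feeds bicarbonate to Cps1, was 1.68-fold and 1.65-fold higher in the Clock mutant. Glul and Slc7a2 were the only members of this list at least 2-fold apart in any comparison on scaled values.

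Amino acid catabolism beyond Tat, Agxt and Hpd was mostly level, with exceptions among genes of glycine, histidine and cysteine. In wild type Gldc, a subunit gene of the glycine cleavage system, read 10609 at CT02 and 4977 at CT14, Hal, the histidine ammonia-lyase gene, 15299 and 7921, and Gclc, of glutathione synthesis, 10762 and 5723. These are log2 ratios of -1.09, -0.95 and -0.91, while the same ratios were 0.05, -0.34 and -0.17 in the Clock mutant and 0.58, 0.00 and -0.01 on the Cry-labelled arrays. The differences between genotypes were not tested. Of 6 further genes of phenylalanine, tyrosine and tryptophan breakdown, among them Fah, Hgd, Gstz1 and Qdpr, 0 were 2-fold apart in any comparison, and all 6 were lower at CT14 in the Clock mutant with a median of -0.42, where 84.3% of the 485 brightest genes were lower with a median of -0.29. Of those, Qdpr, which regenerates the cofactor of phenylalanine hydroxylase, had the profile closest to that of Otc. Shmt1, the cytosolic serine hydroxymethyltransferase gene, had a log2 ratio of -0.98 in the same contrast, and Shmt2 on a probe set with a letter code one of -0.67.

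The sulphur and branched-chain lists had medians of opposite sign between the times in Clock mutant liver. All 8 methionine and cysteine genes kept were above wild type at CT02, with a median of 0.32 (Bhmt2 0.65, Tst 0.49, Csad 0.20, Gclc 0.08), and all 8 were lower at CT14 than at CT02, with a median of -0.39. Of the 485 brightest genes 79.6% were higher in the former comparison (median 0.24) and 84.3% lower in the latter (median -0.29). Of 15 branched-chain and lysine genes 12 were higher at CT14 than at CT02 in the Clock mutant, with a median of 0.25. Over all kept genes 48.9% were higher in that contrast, with a median of 0.00. The 3 that were lower, Hibadh (-0.22), Aass (-0.23) and Gcdh (-0.50), had the highest wild-type CT02 readings of this list (18266, 16204 and 13787). Dld, next at 12415, had a ratio of 0.07, and Mat1a of the sulphur list, at 6993, had -0.30. Whether the opposite signs of the medians follow brightness was not tested. Neither list was recomputed under the other scalings, on which the median of the enzyme genes in that contrast depended. Against wild type at CT02 and CT14 Bckdhb, a subunit gene of the branched-chain ketoacid dehydrogenase, had log2 ratios of 0.97 and 0.69 in the Clock mutant and Mcee, of propionate breakdown, 0.80 and 0.60. Mmut, which acts after Mcee, had 0.25 and 0.74, and Bckdk, the kinase that restrains the dehydrogenase, -0.49 and 0.42. No gene of either list was 2-fold apart in any comparison.

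**Figure D4:**
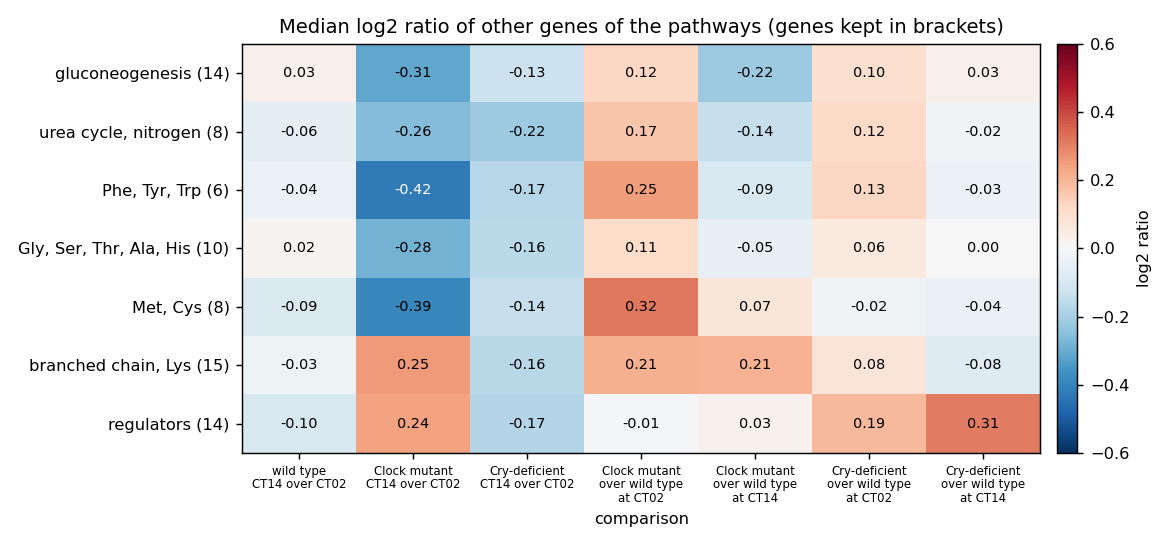
Median log2 ratio (colour and number) of the other genes of 7 pathway lists, with the number of genes kept in brackets, in the 7 comparisons in columns. In the Clock mutant CT14 over CT02 the medians of 5 lists lie between -0.42 and -0.26, and those of the branched-chain and regulator lists are 0.25 and 0.24.

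Among regulators of the fasting programme Nr0b2, Hnf4a, Foxa2 and Cebpb had the largest ratios. Of 14 regulators kept (26 listed), between 1 and 4 were at least 2-fold apart in each comparison, where 4.56% to 11.8% of all kept genes were, so that 1 of 14 is near the general share. Nr0b2, a corepressor that restrains gluconeogenic and bile acid genes, read 5260.5 and 913 in wild-type liver, 5217 and 2148 in Clock mutant liver, and 1310 and 1425 on the Cry-labelled arrays. It was high at CT02 in wild type and the Clock mutant only. Hnf4a, a hepatocyte transcription factor gene, read 871 for the Cry-labelled liver at CT02, against 4042 to 6563 elsewhere. Cebpb, an activator of Pck1, read 5493 and 8466 in wild-type liver, 6542 and 12198 in Clock mutant liver, and 16573 and 12575 on the Cry-labelled arrays, where it was 3.02-fold over wild type at CT02. Foxa2 was under the floor at CT02 in wild type and the Clock mutant and read 747 and 2137 at CT14, and 1851 and 2376 on the Cry-labelled arrays.

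The genes whose profile over the 6 arrays was most like each enzyme gene were found by the Euclidean distance of log2 values centred on each gene's mean, over all kept genes. Otc lay nearest to Qdpr (distance 0.05) and Ndufa7 (0.05), Tat to Scp2 (0.10) and Atp5mpl (0.10), and Arg1 to Slc22a18 (0.06) and Hsd11b1 (0.07). Fbp1 lay nearest to Cox18 (0.06) and Actg2 (0.10), and Cps1 to Rab7 (0.11) and Apoh (0.13). Pck1 and Agxt had no neighbour as close: Gnaq (0.31) and Ift46 (0.32) for Pck1, and Psg17 (0.28) and Gh (0.30) for Agxt. Gnaq was under the floor on 2 of the 6 arrays and read at most 1009, so its distance from Pck1 is partly set by the floor. Genes with a small range over the arrays have near neighbours whatever they encode, and the log2 range was 0.27 for Arg1, 1.06 for Pck1 and 1.33 for Agxt, against a median of 0.48 in the 485 brightest genes and 0.83 over all kept genes. Among the enzyme genes themselves Otc and Tat were closest to each other (0.19), then Fbp1 and Arg1 (0.22), while Ass1 was 2.57 from its nearest, Cps1. Sdc4, a heparan sulphate proteoglycan gene, was nearest to Ass1 (0.67), with readings of 1556 and 1599 in wild-type liver, 97.0 and -138.4 in Clock mutant liver, and 8667 and 1686 on the Cry-labelled arrays. Med27 followed (0.78). Sdc4 and Med27 lay under the floor on both Clock mutant arrays, as Ass1 did, so their distances from Ass1 are partly set by the floor. These neighbours of Ass1 were added after its values were seen.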

How the data were processed

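Per the deposited tables, each of 6 liver arrays has a single intensity per probe set, in whole numbers that are partly negative, so the authors' values had some signal subtracted. The sources used here name no software. Every array was divided by its median ratio to the geometric mean of the 6 arrays (6065 bright probe sets, positive on all). Values under the pooled median, 606 scaled units, were raised to it, and log2 followed, so that folds against this floor are lower bounds.

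Gene symbols came from the platform annotation, checked by gene number against RefSeq (GRCm38.p6, 10839 matches). Of 12488 probe sets, 10855 carried 1 symbol, 396 several and 1237 none. A gene took its brightest probe set and was kept if its mean reached the floor (4844 of 8251). Pairs of arrays, 7 in all, are described by log2 ratio with a 2-fold mark. The additive fit used limma 3.58.1 in R 4.3.3 (Python 3.11.15 elsewhere) and was tested on simulated data. Those had the same spread for every gene, with no time effect, no time difference between genotypes and no floor. That test thus does not show how the fit behaves on data with these features.

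The 9 genes and all lists were chosen with earlier results of these data known. Named beside the 9 are, per pathway list, up to 4 genes of largest log2 ratio, and the 2 nearest profiles of each gene above the floor on all arrays. Alternatives changed the scaling (none, quantile, lowess with span 0.3, or leaving the Clock mutant or Cry-labelled CT02 array out of it), the floor (25th percentile), the filter (none, or 75th percentile), the probe sets (mean, or no letter codes), the mark (3-fold), the fit (ordinary least squares) and the arrays (each left out). The number of arrays limits the precision.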

Additional observations from a re-analysis of the deposited data

Results flagged for a closer look

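The time ratio of Pck1 had opposite signs in wild type and the Clock mutant, each at least 0.5 in log2 (0.77 and -0.80), a difference of -1.56 that was not tested, since each genotype has 1 array per time. Of the 4844 kept genes 167 (3.45%) had opposite ratios of that size between these genotypes. The time ratio of Ass1 was 0.56 in wild type and -1.67 on the Cry-labelled arrays, a difference of -2.23 that was likewise not tested, and 136 kept genes (2.81%) had opposite ratios of that size.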

How the results depend on the processing

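No paired analysis was possible because each group has 1 array and the labels give no replicate numbers. A median is called moved when it shifted by more than 0.22 in log2, the median residual SD of the additive fit. The median of the enzyme genes moved in 2 comparisons. For Clock mutant CT14 over CT02 it was -0.40 and became 0.017 as deposited, -0.073 with quantile normalization and -0.12 after lowess correction. For Clock mutant over wild type at CT02 it was 0.32 and became -0.23, 0.030 and 0.080 in that order. The number of genes at least 2-fold apart in that last comparison was 2, and 0 at 3-fold, 1 as deposited, 1 with quantile normalization, 1 with the filter at the 75th percentile and 1 without Ass1. With that filter, or without Ass1 (a choice made after the data were seen), the single gene past 2-fold in the Cry-labelled time contrast, in the Clock mutant at CT14 and in the Cry-labelled CT02 comparison was lost, leaving 0, because the gene was Ass1. With the floor at the 25th percentile 1 gene, Ass1, was 2-fold apart between the Clock mutant times, at readings under the main floor. In the additive fit (limma), genes called for Clock mutant over wild type numbered 2, and 33 with the filter at the 75th percentile, 0 with the floor at the 25th, 1 each as deposited, after lowess correction, with quantile normalization and with the mean over probe sets, 5 with no filter and 0 by ordinary least squares. For Cry-labelled over wild type 4 were called with the filter at the 75th percentile. Leaving out each array in turn gave 0 to 76 genes and 0 to 1 enzyme genes for the Clock mutant contrast, 76 and 1 (Ass1) without either Cry-labelled array, and 0 to 6 genes for the Cry-labelled contrast, 6 without its CT02 array. Apart from these, 40 of the 521 single-gene ratios recomputed moved by more than 0.22, and 0 of those 2-fold apart changed sign. By setting, 14 of 56 moved as deposited, 13 of 56 with quantile normalization, 10 of 56 after lowess correction and 3 of 56 with the floor at the 25th percentile. Changes of the probe sets or the filter could not move a ratio. Each enzyme gene has 1 probe set without a letter code, and the filter alters no value. Signal over background limits Ass1 in the Clock mutant and Hpd throughout, and signals near the top of the range limit Arg1.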
